A study of Marchantia polymorpha with 12 samples.

Results

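The genes described here are those whose RNA was lower with UV-B than without it in both lines of a liverwort, wild type and a mutant. They number 187 of the 18255 genes in the table, and 11637 genes met the level conditions of the rule. The rule took, in each line, the mean of the 3 libraries with UV-B plus 1, divided by the mean of the 3 libraries without UV-B plus 1. A gene entered when this ratio was at most 0.65 in both lines, when both lines had a mean plus 1 of at least 50 without UV-B, and when the lines differed by no more than a factor of 4 there. A stretch of chromosome 4 that held another 5 genes within all these limits was left out by the rule. The genes were thus chosen by their measured UV-B ratios in both lines and their levels without UV-B, so the UV-B values below describe the set and are not evidence for it.

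The RNA came from gemmalings, young plants grown from gemmae, of the liverwort Marchantia polymorpha. Both lines were 7 days old, labelled male, and had been raised under white light of 50 μmol m-2 s-1. Wild type was the laboratory strain Tak-1, and the mutant is labelled Mphy5, with the genotype given as Mphy5-1. Each line was sampled without UV-B and after 3 h in which 1.5 μmol m-2 s-1 of UV-B was added to the light, with 3 libraries in each of the 4 groups. The labels do not say whether the 3 libraries of a group came from separate cultures, so a p-value here measures only the spread between these libraries. When the plants without UV-B were harvested is not stated in the labels, so UV-B and elapsed time cannot be told apart.

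UV-B is sensed in land plants by the photoreceptor UVR8, which acts with COP1 on the transcription factor HY5 to raise the RNA of sunscreen, repair and acclimation genes. Genes whose RNA drops under UV-B in flowering plants often include genes of growth and of the cell wall. In bulk RNA, fewer cells of a type and less RNA per cell cannot be told apart.

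The libraries held 44787979 to 67532310 recovered reads, and values are normalized reads, that is reads divided by the size factor of the library. Male V chromosome genes together had 139777 to 162984 normalized reads in each library, and female U chromosome genes 79 to 171 recovered reads. Mp1g16800, listed as MpBZIP1 and taken as MpHY5 from published nomenclature, which was not tested here, was at 1418, 1319 and 1281 in wild type without UV-B and 5999, 6354 and 5745 with it. In Mphy5 it was at 1592, 1522 and 1521 and 16018, 16815 and 15534, so its RNA level is no check on the mutation. The first Mphy5 library with UV-B stood apart for these genes. It was the lowest of its group in 119 of the 187, with a median shift of −0.12 on the log2 scale against −0.002 over all genes with reads. In 10 of the 187 it held at most 0.5 of the lower of the other 2 libraries. This was so for 28 of the 11709 genes with a mean plus 1 of at least 50 in both lines without UV-B. The rule used the mean of the Mphy5 libraries with UV-B, so a low value in 1 of them helps a gene enter. The contrast with all genes is thus partly set by the rule, and these values are not shown to be a trait of the 187 genes. Without the first Mphy5 library with UV-B the rule finds 177 genes, of which 171 are shared.

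At the same ratio, 331 genes met the wild type condition and 514 the Mphy5 condition, so the 187 were 56.5% of the wild type falls and 36.4% of the Mphy5 falls. Rises of the same size numbered 613 in wild type, 653 in Mphy5 and 476 in both. The share of RNA left after UV-B was 17.7% to 64.9% in wild type, with a median of 55.1%, and 22.5% to 63.9% in Mphy5, with a median of 51.2%. The ratio was at most 0.5 in both lines for 42 genes, in wild type only for 25, in Mphy5 only for 38 and in neither for 82. The last genes inside the threshold were Mp2g22940, at 0.6497 in wild type, Mp6g14210, at 0.6495, and MpXIP, at 0.646. The first outside it were Mp1g18860, at 0.6502 in Mphy5, Mp6g14350, at 0.6503 in wild type, and Mp5g00260, at 0.651 in wild type and 0.284 in Mphy5. The set thus has no gap at its edge.

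**Figure D1:**
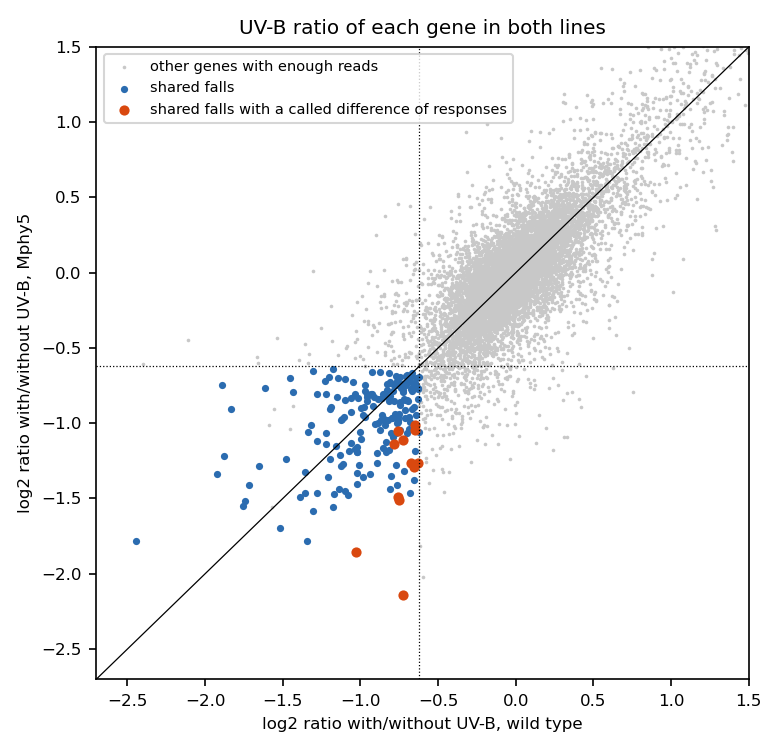
Log2 ratio of mean normalized reads with UV-B to without it, in wild type (x axis) and Mphy5 (y axis), for each gene that met the level conditions. Dotted lines mark the ratio of 0.65, the solid line marks equal ratios, blue points are the shared falls, and the 12 orange points are the shared falls whose UV-B responses were called different between the lines, all of them below the line of equal ratios. Genes with a log2 ratio above 1.5 in a line lie outside the axes.

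A gene is said to be called when its limma adjusted p was under 0.05 over the 15999 genes tested. All 187 genes entered that test, none being lost to its filter on low values. The rule had used these contrasts, so the counts are given without reading anything from them. In wild type 171 of 187 were called lower with UV-B, where 14.6% of all genes tested were, and in Mphy5 169 of 187, where 15.9% were. Both lines gave a call for 164 genes, wild type only for 7, Mphy5 only for 5 and neither for 11. All 3 libraries with UV-B lay below all 3 without it for 180 genes in wild type (20% of all genes tested) and for 177 in Mphy5 (21.9%). The 11 genes called in neither line had a median level of 208 normalized reads without UV-B, and the other members one of 704. Replicates spread more in the set than in other genes: the median coefficient of variation was 8.97% and 12.2% in wild type without and with UV-B, and 9.23% and 13.5% in Mphy5. Over all genes that met the level conditions it was 4.80%, 5.73%, 5.37% and 5.22%. The higher spread was also seen within bands of level without UV-B, except among genes of 50 to 200 reads in Mphy5 without UV-B, where it was 14.4% against 14.9% in the others. With UV-B the members of a band had fallen, while most other genes in it had not. The rule used these same libraries, and a wide spread can help a gene past a ratio limit. The higher spread is thus not shown to be a trait of these genes.

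Of the 187 genes 49 carried a symbol (26.2%, against 19.3% of genes that met the level conditions), and these are described by role.

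Lipoxygenases add oxygen to polyunsaturated fatty acids and open the path to oxylipins, among them the jasmonate precursors that act as hormones in liverworts. The set held 4 of the 16 lipoxygenase genes in the table. MpLOX14 (Mp8g12930) was at 14935, 16578 and 15825 normalized reads in the 3 wild type libraries without UV-B and at 10263, 9542 and 8221 with it. MpLOX14 in Mphy5 was at 13581, 10872 and 11685 without and 4688, 4028 and 4131 with UV-B. The 4 groups did not overlap, with the Mphy5 libraries lowest in each condition. MpLOX14 was called lower in Mphy5 than in wild type, by −0.39 ± 0.095 (log2, SE, adjusted p = 0.00962) without UV-B and by −1.12 ± 0.095 (log2, SE, adjusted p = 2.75e-06) with it. MpLOX10 (Mp8g09050) was at 6959, 7003 and 7022 and 3908, 3781 and 3604 in wild type. MpLOX10 in Mphy5 was at 6708, 6156 and 5236 and 2221, 3044 and 2637. The lines did not give a call without UV-B, where they differed by −0.22 ± 0.11 (log2, SE, adjusted p = 0.169), and Mphy5 was called lower with it, by −0.53 ± 0.11 (log2, SE, adjusted p = 0.00302).

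MpLOX2 (Mp2g23380) ran the other way between the lines. MpLOX2 stood at 6810.0, 6942 and 6835 in wild type without UV-B and 4052, 3913 and 3930.1 with it. MpLOX2 in Mphy5 stood at 12140.4, 9986 and 9292 and 4527, 5179 and 5061. Every Mphy5 library was above every wild type library of its condition, and the line difference was called, by 0.60 ± 0.075 (log2, SE, adjusted p = 2.33e-05) without and 0.31 ± 0.075 (log2, SE, adjusted p = 0.00534) with UV-B. MpLOX16 (Mp2g16000) was a low gene, at 65.1, 108 and 81.1 and 23.2, 26.9 and 23.0 in wild type and 86.8, 66.3 and 86.3 and 13.9, 25.1 and 40.6 in Mphy5. Its 3 Mphy5 libraries with UV-B spread widely, and its 2 lines did not give a call in either condition. Over the lipoxygenase and jasmonate synthesis genes, 20 were tested, of which 7 were called lower and 0 higher with UV-B in wild type, and 6 lower and 0 higher in Mphy5. The median log2 change of that list was −0.27 in wild type and −0.18 in Mphy5, where over all genes it was near 0. Between the lines, 8 genes of the list were called higher and 1 lower in Mphy5 without UV-B, and 8 higher and 3 lower with it. A higher level in Mphy5, as for MpLOX2, was thus the more common call in that list. Outside the set, MpLOX7 had a log2 change of −0.97 in wild type and −0.32 in Mphy5, and was called in wild type.

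**Figure D2:**
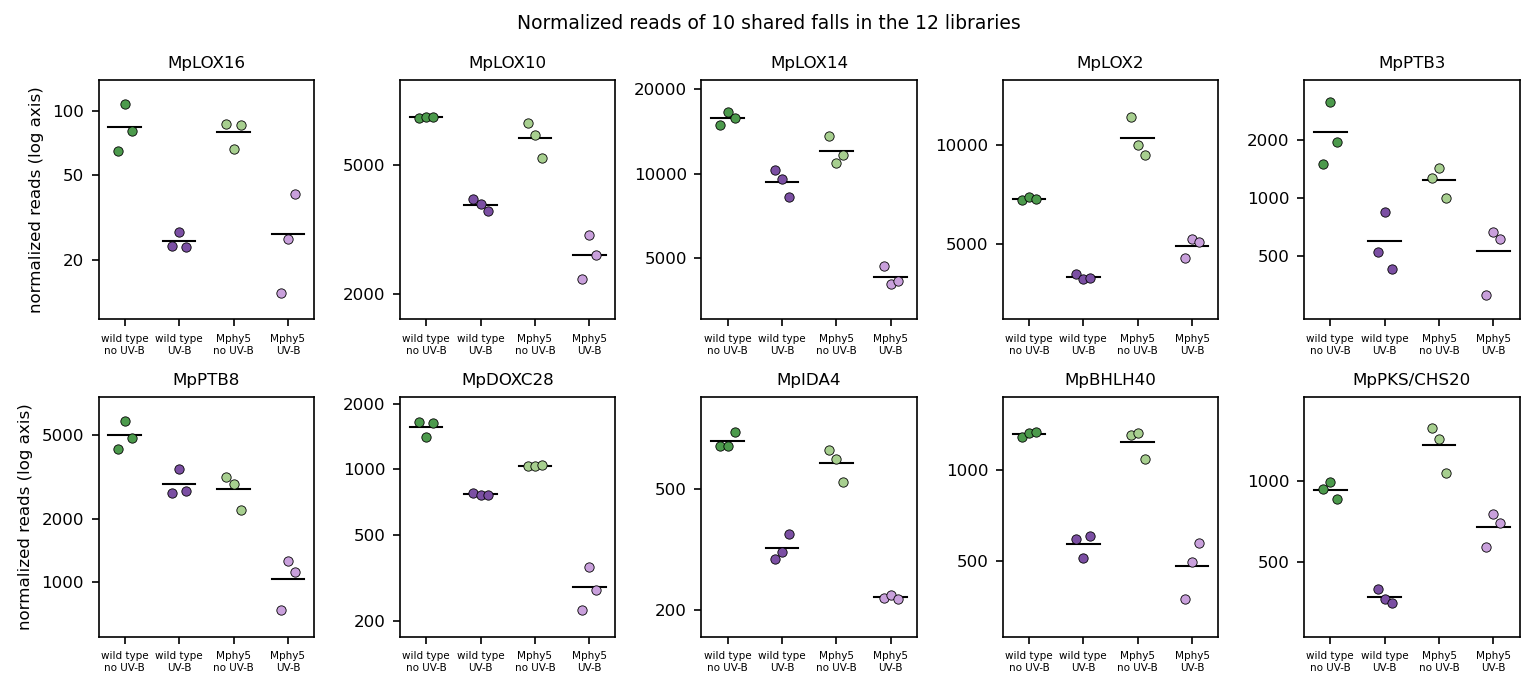
Normalized reads (log axis) of 10 shared falls in the 12 libraries, with 1 point per library and a bar at the mean of each group of 3. In MpLOX14, MpLOX10, MpDOXC28, MpPTB8 and MpIDA4 the Mphy5 libraries with UV-B lie below all other libraries. MpLOX2 and MpPKS/CHS20 lie higher in Mphy5 than in wild type in both conditions, and MpPTB3 spreads widely within each group.

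Membrane transport gave the next group. MpPTB3 (Mp4g16590) and MpPTB8 (Mp4g19700) belong to a liverwort family of phosphate transporters. MpPTB8 was at 4262, 5791 and 4845 without and 2642, 3443 and 2701 with UV-B in wild type. MpPTB8 in Mphy5 was at 3168, 2908 and 2209 and 735, 1256 and 1117. All Mphy5 libraries were below all wild type libraries of the same condition, and the line difference was called, by −0.85 ± 0.23 (log2, SE, adjusted p = 0.0279) without and by −1.52 ± 0.23 (log2, SE, adjusted p = 0.00121) with UV-B. MpPTB3 was at 1494, 3146 and 1955 and 519.6, 847 and 428 in wild type and at 1271, 1432 and 994 and 311, 665 and 609 in Mphy5, with no called line difference. Its Mphy5 call with UV-B was lost in 8 of 23 alternatives, and without the library that stood apart the log2 change went from −1.28 to −0.94 (adjusted p = 0.12). All 8 PTB genes in the table were tested, and 3 were called lower in wild type and 2 in Mphy5. Reads of near-identical copies in this family may have been shared between genes, so single PTB values are uncertain.

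MpHA2 (Mp3g21600), a plasma membrane proton pump, stood at 16313, 16767 and 15889 and 8974, 8165 and 8662 in wild type and 9795, 11186 and 10863 and 7224, 7032 and 5943 in Mphy5. It was called lower in Mphy5, by −0.62 ± 0.065 (log2, SE, adjusted p = 1.27e-06) without and by −0.36 ± 0.065 (log2, SE, adjusted p = 0.000399) with UV-B. Among aquaporins, which pass water and small solutes, MpXIP (Mp3g14380) was at 1288, 1266 and 1165 and 793, 812 and 798 in wild type and at 1868, 1768 and 1489 and 589, 684 and 859.9 in Mphy5. MpXIP was called higher in Mphy5 without UV-B, by 0.46 ± 0.11 (log2, SE, adjusted p = 0.00475), and with UV-B the lines did not give a call. MpNIP (Mp8g11200) was at 647, 677 and 718 and 414, 352 and 429 in wild type and 711, 664 and 716 and 387, 292 and 317 in Mphy5. MpABCC3 and MpABCG10, of the ABC transporter families, and MpMATE8, of a family of efflux carriers, had ratios of 0.557, 0.515 and 0.459 in wild type and of 0.495, 0.555 and 0.507 in Mphy5. MpMATE8 alone of these 3 was called higher in Mphy5 without UV-B, by 0.52 ± 0.17 (log2, SE, adjusted p = 0.0269), and it was so with UV-B too, by 0.64 ± 0.17 (log2, SE, adjusted p = 0.00596). MpABCC3 was called lower in Mphy5 with UV-B, by −0.37 ± 0.12 (log2, SE, adjusted p = 0.027). Of the 143 transporter genes tested by symbol, 28 were called lower and 34 higher with UV-B in wild type, and 30 lower and 37 higher in Mphy5, so the group as a whole did not run one way.

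Cell wall genes came from several families. MpGH16.41 (Mp8g10370), of the GH16 family that holds xyloglucan-modifying enzymes, was at 3090.5, 3432 and 3177 and 1674, 1792 and 1885 in wild type. MpGH16.41 in Mphy5 was at 3073, 2917 and 2983 and 1155, 1442 and 1399. The lines did not give a call without UV-B, and Mphy5 was called lower with it, by −0.43 ± 0.072 (log2, SE, adjusted p = 0.000137). MpGH16.17 and MpGH16.18 (Mp3g10400 and Mp3g10410) are neighbours. MpGH16.17 had the lowest Mphy5 level against wild type in the set, at 582, 1467 and 736 in wild type and 251, 314 and 210.1 in Mphy5 without UV-B. The line difference was called there, by −1.75 ± 0.36 (log2, SE, adjusted p = 0.00588), and with UV-B, by −1.55 ± 0.36 (log2, SE, adjusted p = 0.00917). The UV-B contrast of MpGH16.17 was called in neither line, with 291 to 612 normalized reads in wild type with UV-B. Of 36 GH16 genes tested, 10 were called lower and 1 higher with UV-B in wild type, and 10 lower and 0 higher in Mphy5.

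MpExpansin16 (Mp3g03970), an expansin that loosens walls, was at 5526, 6382 and 6509.9 and 3915, 3734 and 3503 in wild type. MpExpansin16 in Mphy5 was at 4356, 4514 and 4067 and 2409, 2697 and 2372, with all libraries below those of wild type in the same condition. The line difference was called, by −0.51 ± 0.066 (log2, SE, adjusted p = 1.06e-05) without and by −0.58 ± 0.066 (log2, SE, adjusted p = 1.64e-06) with UV-B. MpExpansin5 was near the level limit, at 49.5 to 67.8 in wild type without UV-B, and was called in neither line. MpGT37.5, of the glycosyltransferase family GT37, had ratios of 0.506 and 0.391. Expansins by symbol gave 6 lower and 4 higher in wild type among 32 tested, and 6 lower and 8 higher in Mphy5. That list was meant to hold other cell wall genes too, but it matched expansins only. Glycosyltransferases gave 42 lower and 12 higher in wild type among 118, and 29 lower and 11 higher in Mphy5.

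Class III peroxidases, secreted enzymes that act on phenolics and walls, gave 4 members. MpPOD68 (Mp5g03300) was at 126, 140.1 and 96.5 and 45.3, 60.8 and 24.03 in wild type and at 252, 276 and 225 and 186, 138 and 137 in Mphy5. MpPOD68 was called higher in Mphy5, by 1.06 ± 0.26 (log2, SE, adjusted p = 0.00502) without and 1.88 ± 0.26 (log2, SE, adjusted p = 1.61e-05) with UV-B. The first Mphy5 library with UV-B was the highest of its group here. MpPOD26 was called higher in Mphy5 with UV-B only, by 1.29 ± 0.25 (log2, SE, adjusted p = 0.000447), and MpPOD77 called lower there, by −0.98 ± 0.31 (log2, SE, adjusted p = 0.0217). MpPOD94 was called in neither condition. The UV-B call of MpPOD26 in Mphy5 was lost in 3 of 23 alternatives, and without the first Mphy5 library with UV-B the log2 change went from −0.77 to −0.56 (adjusted p = 0.123). That of MpPOD68 in Mphy5 (limma adjusted p = 0.0437) was lost in 9 of 23. Of 146 peroxidases tested, 21 were called lower and 8 higher with UV-B in wild type, and 15 lower and 4 higher in Mphy5. Reads may be shared between copies in this family.

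The chalcone synthase family, type III polyketide synthases that include the enzyme that opens flavonoid synthesis, gave 3 members with a common direction between the lines. MpPKS/CHS20 (Mp7g14890) was at 935, 991 and 858 and 398, 364 and 353 in wild type. MpPKS/CHS20 in Mphy5 was at 1575, 1431 and 1076 and 572, 753 and 702. Every Mphy5 library was above every wild type library of its condition, with a called difference of 0.54 ± 0.12 (log2, SE, adjusted p = 0.00352) without and 0.85 ± 0.12 (log2, SE, adjusted p = 3.97e-05) with UV-B. MpPKS/CHS18 (Mp4g18370) was at 335, 265 and 289 and 139, 75.9 and 248 in wild type and at 1389, 896 and 609 and 353, 420.2 and 371 in Mphy5. It had the largest called rise of Mphy5 over wild type without UV-B among the 187 genes, at 1.62 ± 0.42 (log2, SE, adjusted p = 0.0202). MpPKS/CHS16 (Mp4g14220), at 259.5, 228 and 204 in wild type and 968, 499 and 427 in Mphy5 without UV-B, was called higher in Mphy5 there, by 1.36 ± 0.43 (log2, SE, adjusted p = 0.0482), a call lost in 11 of 22 alternatives, the replicate block among them (adjusted p = 0.0781). Neither MpPKS/CHS16 nor MpPKS/CHS18 was called with UV-B in wild type, and their Mphy5 calls were lost in 9 and 11 of 23 alternatives. Without the library that stood apart their log2 changes in Mphy5 went from −1.39 to −1.21 (adjusted p = 0.112) and from −1.26 to −1.20 (adjusted p = 0.118), and leaving out other libraries, wild type ones among them, ended these calls too. Over the family and the chalcone isomerases, 29 genes were tested, with 7 lower and 8 higher in wild type, and 8 lower and 6 higher in Mphy5. Between the lines, 14 of the 29 were called higher and 2 lower in Mphy5 without UV-B, and 13 higher and 2 lower with it. The direction between the lines was thus not particular to the 3 members. The family member MpPKS/CHS2, outside the set, rose with UV-B by 3.18 in wild type and 3.80 in Mphy5 on the log2 scale. Reads may be shared between close copies in this family, which was not tested, so single values are uncertain.

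Other enzymes were 2 dioxygenases, a terpene synthase and a few single genes. MpDOXC28 (Mp5g00520), of the DOXC clade of oxygenases that use 2-oxoglutarate, was at 1653, 1406 and 1639 and 775, 763 and 766 in wild type. MpDOXC28 in Mphy5 was at 1034, 1039 and 1046 and 226, 355 and 277. All 4 groups were apart, and Mphy5 was called lower by −0.59 ± 0.12 (log2, SE, adjusted p = 0.000905) without and by −1.45 ± 0.12 (log2, SE, adjusted p = 1.88e-08) with UV-B. MpDOXC3 had ratios of 0.568 and 0.629, and the DOXC family as a whole gave 3 lower and 11 higher in wild type and 4 lower and 11 higher in Mphy5 among 32 tested. MpTPS5 (Mp7g00020), a terpene synthase, was at 253, 263 and 331 and 117, 100.47 and 129 in wild type and 214, 239.6 and 252 and 136, 149.8 and 117 in Mphy5. Among 16 terpene synthases tested, 3 were called lower and 1 higher in wild type, and 3 lower and 1 higher in Mphy5. MpGDPD (Mp4g01320) carries the symbol of glycerophosphodiester phosphodiesterases, which release phosphate-containing groups from lipid remains. MpGDPD was at 4728, 5431 and 4601 and 2858, 3074 and 3064 in wild type and 6470.4, 6527 and 5994 and 2601, 3624 and 3485 in Mphy5, and was called higher in Mphy5 without UV-B, by 0.37 ± 0.11 (log2, SE, adjusted p = 0.0315). MpGH97, of a glycoside hydrolase family, had ratios of 0.527 and 0.573 with no called line difference. MpGID1L5 (Mp8g06760), of a family of proteins related to the gibberellin receptor of flowering plants, was at 2200.0, 2268 and 2361 and 1201, 1242 and 1075 in wild type and 1811, 1959 and 1770.0 and 1104, 979.6 and 1079.7 in Mphy5. Of the 8 genes of that family tested, 7 were called lower with UV-B in wild type and 6 in Mphy5, with 0 called higher in either.

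Signalling genes included 2 peptides and 2 receptor kinases. MpIDA4 (Mp7g10970) encodes a peptide of the IDA family, which in Arabidopsis acts in organ shedding. MpIDA4 was at 694, 695 and 771 and 294, 309.6 and 356 in wild type, and at 674, 629 and 528 and 219, 223 and 217 in Mphy5. The Mphy5 libraries with UV-B were tight and below those of wild type, and the line difference was called there, by −0.53 ± 0.11 (log2, SE, adjusted p = 0.00103), but not without UV-B. MpCLE1 (Mp6g07050), a CLE peptide gene, a family that acts on stem cells, was at 753, 599.6 and 694 and 344, 352 and 562 in wild type and 698, 929 and 746 and 349.7, 376 and 409.7 in Mphy5. MpRLK-Pelle_L-LEC26 (Mp6g03790), a lectin receptor kinase, was at 479, 674 and 600.5 and 238, 350.5 and 274 in wild type and at 719, 665 and 659 and 229.6, 313 and 268 in Mphy5. MpRLK-Pelle_L-LEC25 was low, at 3.49 to 44.4 in wild type with UV-B, and was called in neither line. Peptide and receptor kinase genes gave 31 lower and 6 higher in wild type among 115 tested, and 39 lower and 6 higher in Mphy5.

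Among auxin genes MpPIN4 (Mp5g05150), of the PIN auxin carrier family, was at 829, 815 and 918 and 423, 319 and 353 in wild type and at 1057, 1007 and 1045 and 826, 543 and 412 in Mphy5. The first Mphy5 library with UV-B was again the highest of its group, and MpPIN4 was called higher in Mphy5 with UV-B, by 0.65 ± 0.20 (log2, SE, adjusted p = 0.0278). MpSAUR2 (Mp6g10840), of an auxin-responsive family, was at 2217, 2073 and 2122 and 1226, 1199.8 and 1369.9 in wild type and 1875, 1984 and 1970.3 and 1065, 986 and 952 in Mphy5. It was called lower in Mphy5 with UV-B, by −0.34 ± 0.065 (log2, SE, adjusted p = 0.00048). Over 30 auxin genes tested, 8 were called lower and 6 higher in wild type, and 9 lower and 4 higher in Mphy5.

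Transcription factors were few among the members. MpBHLH40 (Mp5g18910), of the basic helix-loop-helix family, was at 1285, 1322 and 1335 and 592, 512 and 603 in wild type and 1304, 1325 and 1084 and 374, 496 and 574 in Mphy5, with no called line difference. MpBHLH21 (Mp3g11900) was at 1919, 1875 and 1827 and 1119, 1186 and 1286 in wild type and 2159, 2390.2 and 2105 and 1014, 1209 and 1082 in Mphy5, and was called higher in Mphy5 without UV-B, by 0.24 ± 0.072 (log2, SE, adjusted p = 0.0183). MpERF18 (Mp5g12480), of the ethylene response factor family, was at 549, 559 and 614 and 315, 264 and 330.2 in wild type. MpERF18 in Mphy5 was at 720.1, 767 and 776 and 381, 414 and 431, above all wild type libraries of the same condition, with called differences of 0.39 ± 0.10 (log2, SE, adjusted p = 0.00714) and 0.43 ± 0.10 (log2, SE, adjusted p = 0.00293). MpERF10, Mp1R-MYB17 and MpCCAAT-NFYA had ratios of 0.568, 0.576 and 0.619 in wild type and of 0.554, 0.513 and 0.553 in Mphy5, and none was called between the lines. MpGCAM1 (Mp6g04830), an R2R3-MYB needed for gemma cups in Marchantia, was at 89.9, 57.05 and 58.5 and 45.3, 12.8 and 56.4 in wild type and 137, 158 and 147 and 74.0, 57.5 and 90.8 in Mphy5. Its UV-B contrast was called in neither line, and Mphy5 was called higher with UV-B, by 1.15 ± 0.40 (log2, SE, adjusted p = 0.0403). That line call was lost in 9 of 22 alternatives, and without the second wild type library with UV-B the difference was 0.52 (adjusted p = 0.178). Of 193 transcription factors tested by symbol, 45 were called lower and 40 higher in wild type, and 52 lower and 41 higher in Mphy5.

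The other members with a symbol were MpRDR5/6-2, of the RNA-dependent RNA polymerases that make double-stranded RNA in silencing, MpLEA-like7, named for late embryogenesis abundant proteins, MpAAA, MpEXL1 and MpMASE1. MpAAA (Mp7g18570) was at 1481, 1264 and 1339.6 and 801, 665 and 906 in wild type and at 3222, 3508 and 3501 and 1953, 1980.2 and 2179 in Mphy5. Its Mphy5 libraries with UV-B were above the wild type libraries without it, with called line differences of 1.33 ± 0.09 (log2, SE, adjusted p = 4.67e-09) and 1.37 ± 0.09 (log2, SE, adjusted p = 2.08e-09). MpRDR5/6-2, MpEXL1 and MpMASE1 had ratios of 0.614, 0.646 and 0.616 in wild type and of 0.596, 0.589 and 0.557 in Mphy5. MpLEA-like7 was called with UV-B in wild type only (limma adjusted p = 0.0451), a call lost in 9 of 23 alternatives. Its Mphy5 libraries overlapped, at 306, 290.3 and 137 without and 94.4, 155 and 204 with UV-B.

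Some gene groups gave no member. Of 42 genes of dividing cells tested (histones, cyclins, replication factors), 21 were called lower and 3 higher with UV-B in wild type, and 9 lower and 5 higher in Mphy5, and their summed level ran from 107882 to 135393 normalized reads per library. Phenylpropanoid entry genes gave 5 lower and 2 higher in wild type among 16, and 3 lower and 3 higher in Mphy5. Polyphenol oxidases gave 3 lower and 0 higher among 43, and 1 and 1 in Mphy5. Cytochrome P450 genes gave 21 lower and 12 higher among 108, and 22 and 12 in Mphy5, and cupins and germins 2 lower and 5 higher among 59, and 6 and 7 in Mphy5. The 10 genes of light and UV-B signalling gave 8 higher and 0 lower in each line, where 14.6% of all genes tested were called higher in wild type and 15.9% in Mphy5. For sexual organs only MpMID and MpPRM had a symbol, with summed levels of 300 to 468 normalized reads and no call, and rhizoid markers had none.

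The other 138 members had no symbol. The deepest fall of the set in wild type was that of Mp3g01570, at 116, 155 and 81.1 without and 17.4, 9.35 and 35.5 with UV-B, with 87.8, 101.45 and 102 and 34.3, 29.1 and 19.1 in Mphy5. Mp8g04250 had the lowest ratio in Mphy5, at 393, 361 and 318 without and 50.4, 87.4 and 103 with UV-B, against 131, 167 and 183 and 98.8, 107 and 83.6 in wild type. Mp4g19900 and Mp8g10080 had ratios of 0.263 and 0.303 in wild type and 0.396 and 0.376 in Mphy5. Mp7g18400 was at 1929, 1986 and 1897 and 643, 868 and 840.1 in wild type and 2099, 2151 and 2015 and 629.7, 676 and 779 in Mphy5. Mp4g14090 lay among the deepest by its means but was called in neither line. Mp4g14090 was at 114, 442 and 151 and 65.1, 134 and 46.0 in wild type and at 125, 163 and 104 and 11.8, 58.3 and 49.0 in Mphy5, with a wide spread in several groups. The members with the most reads, a measure that also depends on transcript length, were Mp7g05980, at 46189, 47997 and 43789.7 and 24337, 23584 and 22393 in wild type and 34502, 28060.2 and 24522 and 16872, 19069 and 16075 in Mphy5, Mp1g25420 and Mp2g02000. Mp2g02000 was at 24447, 23425 and 15677 without and 6366, 13451 and 16147 with UV-B in Mphy5, where the groups overlapped, and was called in neither line.

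**Figure D3:**
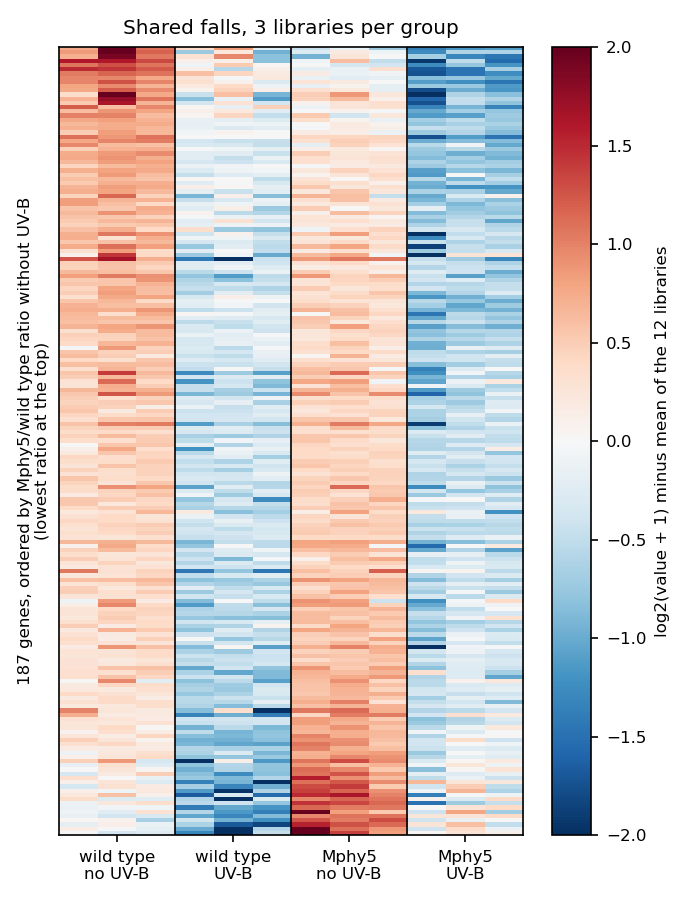
Log2(value + 1) of the 187 genes in the 12 libraries, each row taken relative to its mean over the libraries, with rows ordered by the ratio of Mphy5 to wild type without UV-B. Both lines lose colour from red to blue with UV-B, the top rows are lower and the bottom rows higher in Mphy5 in both conditions, and the first Mphy5 library with UV-B holds the darkest blue of its group in many rows.

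The depth of the fall was compared between the lines through the difference of the UV-B responses, Mphy5 minus wild type, on the log2(value + 1) scale. The rule bounds both responses but does not fix the sign of this difference, and it comes from the same libraries. The difference was called for 12 of 187 genes, where 4.46% of all genes tested were called either way, 2.54% towards a lower and 1.93% towards a higher value in Mphy5. All 12, or 6.42%, had the larger fall in Mphy5, and 0 the smaller by limma. At an unadjusted p under 0.05 there were 28 with a larger and 6 with a smaller fall. A smaller fall was called for 1 gene with DESeq2 and for 0 with edgeR. Signs over all members were negative for 116 and positive for 71, with a median of −0.08, where over all genes tested it was 0.0009. The counts at an unadjusted p and the counts of signs were not computed over all genes. They are thus not shown to be particular to the set. For the 175 genes with no call the difference ran from −0.78 to 1.119, with a median standard error of 0.20 over the set, so the lines are not shown to act alike in them. Without the library that stood apart 10 genes were called, and without the trend and robust options of limma 3 were.

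The 12 genes fell into 4 patterns of level. In MpDOXC28, MpLOX14 and Mp1g23160 Mphy5 was called lower than wild type in both conditions. In MpXIP, MpBHLH21, Mp8g04250 and Mp7g18100 it was called higher without UV-B, and with UV-B there was no call. Mp7g18100 was at 3572, 3495 and 3679.9 and 2211, 2257 and 2341 in wild type and at 5375, 4862 and 4831 and 1798, 2051 and 2322 in Mphy5, so that all Mphy5 libraries were above wild type without UV-B and the groups overlapped with it. In Mp2g14930, Mp7g08090, Mp1g25420 and Mp8g03180 there was no call without UV-B, and Mphy5 was called lower with it. Mp1g25420 was at 30975, 27238 and 27797 and 17087, 16675 and 18274 in wild type and 28679, 30496 and 28496 and 13966, 14061 and 12572 in Mphy5. Mp4g14980 alone was called higher in Mphy5 without UV-B, by 0.21 ± 0.06 (log2, SE, adjusted p = 0.0143), and lower with it, by −0.38 ± 0.06 (log2, SE, adjusted p = 6.74e-05). Mp4g14980 was at 5622, 6076 and 5966 and 3434, 3643 and 3992 in wild type and 7006, 6884 and 6525 and 2619, 2837 and 3055 in Mphy5, with no overlap between the lines in either condition.

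The lines were then compared in level. The rule allowed a ratio of Mphy5 to wild type without UV-B of 0.25 to 4, and 165 of the members lay within 0.5 to 2. Without UV-B 73 members were called between the lines (39%, where 24.9% of all genes tested were). Of these 38 were lower in Mphy5 (20.3%, against 13.9% of all genes) and 35 higher (18.7%, against 11%). With UV-B 86 were called (46%, against 29.8%), 56 of them lower (29.9%, against 16%) and 30 higher (16%, against 13.8%). The called members with a higher level in Mphy5 numbered 19 rather than 35 without the second Mphy5 library without UV-B, 23 without the first wild type library without UV-B, and 18 rather than 30 with UV-B without the second Mphy5 library of that group. In 54 genes the lines were called apart in both conditions, with the same sign in 53, which were 33 lower and 20 higher in Mphy5, and Mp4g14980 was the exception. The 2 conditions share no library in this comparison, but their calls use the same estimate of the spread of each gene and so are not independent. In 82 genes the lines were called apart in neither condition. These counts over both conditions, and the agreement in sign, were not computed for all genes tested. They are thus not shown to be particular to the set.

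Lowest in Mphy5 without UV-B after MpGH16.17 were Mp2g25340, Mp4g22800, Mp3g06921, Mp8g02470 and Mp6g16380, with log2 differences of −1.497, −1.46, −1.45, −1.39 and −1.38. Mp8g02470 was at 392.50, 456 and 390.1 and 177, 268 and 191 in wild type and at 187, 146 and 142 and 77.2, 108 and 81.2 in Mphy5. Its Mphy5 libraries without UV-B thus overlapped the wild type libraries with it. Highest in Mphy5 after MpPKS/CHS18 were Mp2g03470, Mp8g12190, MpPKS/CHS16, MpAAA and Mp1g11315, with log2 differences of 1.38, 1.38, 1.36, 1.33 and 1.17. Mp1g11315 was at 434, 459 and 448 and 179, 235 and 210.0 in wild type and at 1064, 970.0 and 996 and 477, 576 and 628 in Mphy5, so that each Mphy5 library with UV-B was above each wild type library without it.

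**Figure D4:**
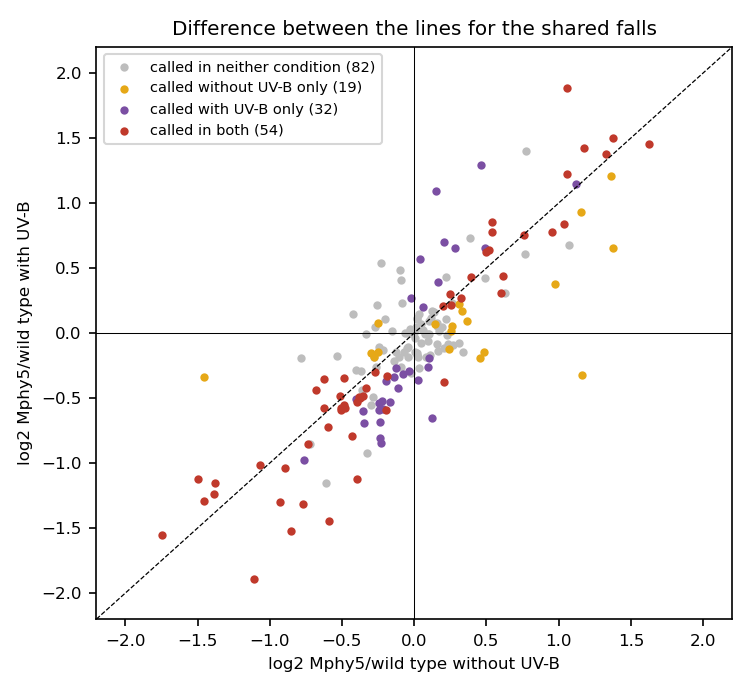
Log2 difference between Mphy5 and wild type for the 187 genes without UV-B (x axis) and with UV-B (y axis), coloured by the condition in which the lines were called apart. The dashed line marks equal differences. The 54 red genes lie in the lower left and upper right, apart from Mp4g14980 in the lower right.

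Position in the genome was not part of the rule beyond the excluded stretch of chromosome 4. The members Mp4g14090 and MpPKS/CHS16 lie on either side of that stretch. Its 5 genes within all limits are not counted in the groups below, so a longer run there would not be seen. Chromosome 8 held 36 members, 3.32% of its 1084 genes that met the level conditions, and chromosome 1 held 18, or 0.865% of 2081. The other chromosomes lay between, from 1.26% to 2.13%. By gene order, 40 members (21.4%) lay within 30 locus numbers of another member, in 17 groups, which were 14 pairs, 2 groups of 3 and 1 group of 6. The same share was not computed for other genes, so it is not shown to be particular to the set. The group of 6 is on chromosome 8 and runs over Mp8g02700, Mp8g02710, Mp8g02730, Mp8g02745, Mp8g02750 and Mp8g02770, none of which has a symbol. Mp8g02745 was at 365, 531 and 488 and 134, 244 and 190.2 in wild type and 381, 618 and 416 and 117, 232 and 161 in Mphy5. Mp8g02730 was at 171, 230.2 and 235 and 52.3, 72.4 and 62.7 in wild type and 189, 235 and 197 and 30.03, 81.0 and 104 in Mphy5. Mp8g02770 was called lower in Mphy5, by −0.77 ± 0.18 (log2, SE, adjusted p = 0.00414) without and by −1.31 ± 0.18 (log2, SE, adjusted p = 2.06e-05) with UV-B, and the other 5 were not called between the lines in either condition.

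The first Mphy5 library with UV-B stood apart in this group too. Mp8g02700 was at 76.2, 364 and 407 in the Mphy5 libraries with UV-B and Mp8g02710 at 52.6, 215 and 223, so that the first library held 76.2 and 52.6 where the other 2 were alike. The Mphy5 ratio of Mp8g02700 was 0.369 with that library and 0.503 without it, and that of Mp8g02710 0.410 and 0.548. With all libraries the UV-B contrast of Mp8g02710 was called in neither line. That of Mp8g02700 was called in Mphy5 only, a call lost in 10 of 23 alternatives. Without the first Mphy5 library with UV-B, both genes were called lower with UV-B in both lines. The limma adjusted p in wild type and Mphy5 was then 3.57e-05 and 0.000438 for Mp8g02700, and 0.00273 and 0.0353 for Mp8g02710. The 4 groups share 1 estimate of the spread of each gene, so that library enters the wild type calls too. Between and beside the members, Mp8g02740 and Mp8g02760 were near the floor, Mp8g02780 lay just outside the rule with ratios of 0.663 and 0.583, and Mp8g02690 had no ratio within the rule. Mp8g02690 had a mean of 475 normalized reads without and 1395 with UV-B in wild type, and of 0.360 and 4.06 in Mphy5. Reads of neighbouring copies may have been shared, and the labels do not state whether the counting used strand.

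**Figure D5:**
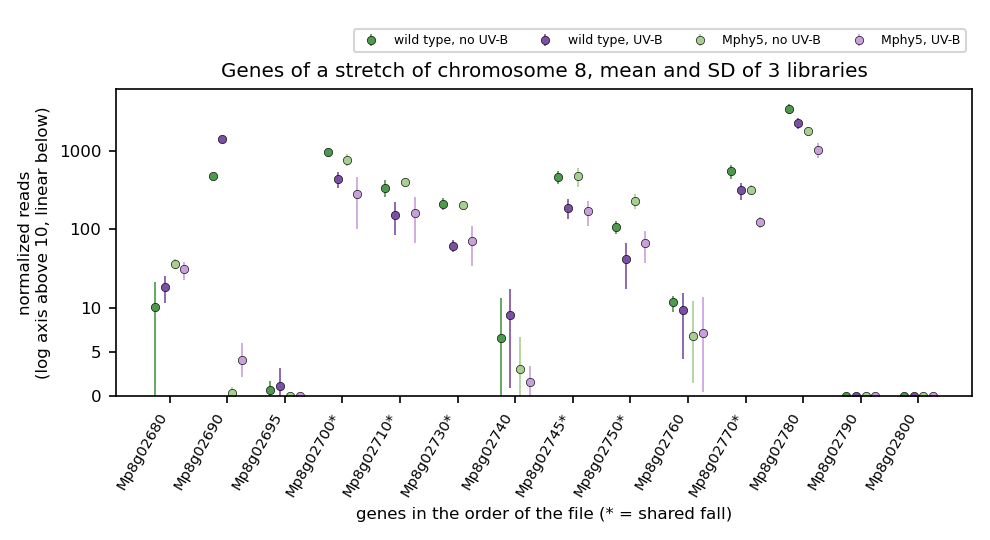
Mean normalized reads in each of the 4 groups, with SD of 3 libraries, for the genes around the group of 6 on chromosome 8, in the order of the file (log axis above 10, linear below; bars end at 0). The 6 starred members have lower means with UV-B in both lines, and Mp8g02690 is near 0 in Mphy5 and higher with UV-B in wild type.

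In the other groups of neighbours the ratios were as follows. On chromosome 3, Mp3g06921, Mp3g06930 and Mp3g06940 had wild type ratios of 0.269, 0.541 and 0.546. Mp3g06921 was lower in Mphy5 without UV-B, as given above, and the other 2 had Mphy5 to wild type ratios of 1.19 and 1.26. On chromosome 8, Mp8g16155, Mp8g16160 and Mp8g16165 had wild type ratios of 0.638, 0.586 and 0.573 and Mphy5 ratios of 0.600, 0.413 and 0.479. MpIDA4 was beside Mp7g10960, MpLOX14 beside Mp8g12920, and MpLEA-like7 beside Mp2g02000. Mp4g10470 and Mp4g10490 had wild type ratios of 0.382 and 0.479, and Mp6g18770 and Mp6g18780 of 0.532 and 0.390. The other pairs were Mp1g11290 with Mp1g11315, Mp1g23130 with Mp1g23160, Mp1g24220 with Mp1g24240, Mp2g05030 with Mp2g05050, Mp5g10390 with Mp5g10410, Mp6g13270 with Mp6g13280, Mp6g20580 with Mp6g20590, and Mp8g10060 with Mp8g10080, besides the GH16 pair named above. In the pair Mp6g20580 and Mp6g20590 the first Mphy5 library with UV-B again stood apart, at 1604, 4686 and 5387 and 85.8, 419 and 429, and neither gene was called in either line.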

How the data were processed

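The 12 libraries were sequenced as single reads of 100 bases, per the labels' protocols. Per the submitters' processing notes, STAR 2.7.4 was the aligner. For the build, the annotation, the counting and strand, nothing is stated in the labels. The authors deposited a normalized signal per gene, which proved to be counts divided by 1 size factor per library: 100% of values were whole reads within 0.02, so reads could be recovered (totals of 44787979 to 67532310, which set the precision). Symbols were taken from a RefSeq table, which matched 18082 of 18255 identifiers and whose build may differ.

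Log2(value + 1) was fitted in limma 3.58.1 under R 4.3.3, with a mean for each of the 4 groups, 8 residual degrees of freedom, and trend and robust options. Adjustment by Benjamini-Hochberg ran over the 15999 genes that reached a value of 1 in 3 or more libraries. Folds of low genes are understated on this scale. Alternatives were pseudocounts of 0.1 and 5, other filters, TMM and median-ratio rescaling, limma without those options, a replicate block, each library left out, only the compared groups, and edgeR 4.0.16 and DESeq2 1.42.0 on recovered reads. The fits were tested on simulated data. Plots used matplotlib 3.10.9.

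The members and gene lists were chosen with earlier results of these data known. Lists were taken by symbol. The genes named were the members with symbols or on a list, the 8 deepest falls without a symbol, the 10 smallest p for the difference of responses, the 6 highest and 6 lowest between the lines, those at the edge of the rule, the 3 with the most reads and those beside another member. MpLOX7, MpPKS/CHS2, the non-members beside the group of 6 on chromosome 8 and the families within lists were added after their values were seen. No sequences were used here.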

Additional observations from a re-analysis of the deposited data

Results flagged for a closer look

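The UV-B responses of 12 members were called different between the lines by the test of the difference itself (limma, adjusted p under 0.05 over 15999 genes), with the larger fall in Mphy5 in each. Members have been chosen by both responses, so this concerns only their relative size. On the log2(value + 1) scale, Mphy5 minus wild type, the difference was −1.48 for Mp8g04250 (adjusted p = 0.00757), −0.86 for MpDOXC28 (0.00367), −0.77 for Mp2g14930 (0.0294) and −0.73 for MpLOX14 (0.00878). It was −0.65 for MpXIP (0.0208), −0.64 for Mp7g18100 (0.000582), −0.59 for Mp4g14980 (0.000238) and −0.40 for Mp1g23160 (0.017). The smallest were −0.39 for Mp1g25420 (0.00493), −0.36 for MpBHLH21 (0.0481), −0.36 for Mp7g08090 (0.0141) and −0.30 for Mp8g03180 (0.0171). MpLOX14, Mp7g18100 and Mp4g14980 were called in all 22 alternatives. MpBHLH21 was called in 8 of its 22 alternatives, Mp2g14930 in 14, MpXIP in 15, and the other 6 in 17 to 21. No group of 3 libraries was tested for a single outlying library.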

How the results depend on the processing

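The number of genes that meet the rule was 42 at a ratio of at most 0.5 and 526 at 0.75, and 177 to 201 with 1 library left out. Without the trend and robust options the difference of responses was called for 3 members instead of 12, all 3 with a larger fall in Mphy5, and 19 instead of 35 were higher in Mphy5 without UV-B. A smaller fall in Mphy5 was called for 1 member with the replicate block, 1 with DESeq2, and 0 to 1 with 1 library left out. Leaving out 1 library gave 19 to 36 members higher in Mphy5 without UV-B, 18 to 31 higher with UV-B, and 8 to 14 with a called difference. The replicate block gave 175 members called lower with UV-B in wild type, 173 in Mphy5 and 14 with a called difference. The replicate numbers are not shown to pair libraries: the correlations of deviations between libraries of the same number ran from −0.017 to 0.054 over 18 pairs, and 6 of 12 libraries correlated best with their own number. Causes of these shifts were not tested. Of 7226 recomputed values of the 319 results on named genes, 6876 kept their direction and side of the threshold, 283 lost a call, 67 gained one and 0 changed direction. The UV-B contrasts among these results had been used by the rule, and other contrasts entered only where called. That 0 changed direction was thus close to fixed in advance. The median log2 change of all genes with UV-B was −0.0092 as deposited and −0.0093 with TMM in wild type, and −0.0065 and 0.0106 in Mphy5. Calls between the lines were lost in 7 of 22 alternatives for MpGDPD, in 6 with UV-B for MpPKS/CHS18, in 5 without UV-B for MpMATE8, and in 4 for MpPTB8 without UV-B and for MpPIN4, MpPOD77 and MpABCC3 with it. Genes under about 200 reads spread most between libraries, and depth covers counting error only.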
